A study of Mus musculus with 30 samples.

Results

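The genes described here are 36 genes of the lysosome, the acid organelle in which cells break down proteins, glycans and lipids. They were taken by name and hold 9 glycosidases, 4 sulfatases, 5 lipid hydrolases and activators, 9 proteases, 7 membrane proteins and transporters, and the pair of Tfeb, a transcription factor, and Grn, the progranulin gene. All 36 were listed by symbol in both deposited expression tables, among 26266 genes kept from the table of young mice and 22781 kept from the table of aged mice. All 36 were high enough to be tested in each of the 4 comparisons below.

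Expression was measured by RNA-seq in B cells from the spleen of C57BL/6 mice. The mutant mice carry a conditional knock-in that restricts the Ikzf3-L161R missense allele to B cells; the series title gives the human change as L162R, and Ikzf3 is the gene of Aiolos, a DNA-binding regulator of lymphocyte genes. The driver that limits the allele to B cells is not given in the sources used here. The young groups are homozygous mutant mice (labelled Ikzf3 fl/fl, n = 3 libraries) and wild-type mice (n = 3), at 2 to 3 months of age. The aged groups, at 15 to 18 months, are CLL-like cells of leukaemic mutant mice (n = 5, called CLL cells here), B cells of mutant mice outside the leukaemia (n = 4, called non-CLL cells) and B cells of wild-type mice (n = 3). CLL cells had been gated as B220+CD5+ by FACS, and the other cells were isolated with magnetic beads. Differences between CLL cells and either other aged group therefore cannot be told apart from an effect of the isolation method. CLL libraries 1, 2, 4 and 5 and non-CLL libraries 2, 4 and 5 come from heterozygous mice (labelled Ikzf3 fl/+), and library 6 of either kind comes from a homozygous mouse. The design text states that non-CLL cells came from the same mice as CLL cells. Separate animals are not spelled out for each library, so p-values measure the spread between libraries, which may be technical. All values are TPM, read numbers divided by gene length and scaled to a common total, so levels can be compared between genes within a table. TPM keeps no sequencing depth, so counting error is unknown.

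Lysosomal hydrolases are made in the endoplasmic reticulum, tagged with mannose 6-phosphate in the Golgi apparatus and carried to the lysosome by receptors for that tag, where a proton pump keeps the lumen acid. Tfeb and its relatives switch on many of these genes together through the CLEAR element, a sequence built around the E-box CACGTG, when nutrient sensing on the lysosomal surface is low. In B cells the same proteases cut antigen and the invariant chain before peptides are loaded on MHC class II molecules. Macrophages hold more lysosomes than B cells and express many of the same genes strongly.

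The stretches before the start sites of 5 genes are shown because these genes are named in the results or because the stretches hold the E-box. They are RefSeq sequences of GRCm38.p6, read 5′ to 3′ on the strand of the gene, with every CACGTG in capitals. Gla lies on the minus strand of chromosome X, back to back with Hnrnph2 on the plus strand, and the stretch of 173 bases between the start sites holds no CACGTG. The pair of E-boxes of Gla lies farther out, inside the annotated span of Hnrnph2, and is shown in windows of 25 bases.
Gla, between the start sites (chrX:134601006-134601178, minus strand): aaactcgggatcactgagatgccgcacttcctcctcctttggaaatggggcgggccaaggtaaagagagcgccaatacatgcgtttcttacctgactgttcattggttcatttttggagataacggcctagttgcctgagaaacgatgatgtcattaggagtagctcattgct
Gla, first E-box (chrX:134601216-134601240, minus strand): cgattgatCACGTGagcatctacgt
Gla, second E-box (chrX:134601186-134601210, minus strand): gagatctcggtCACGTGagcaactc
Mcoln1 (chr8:3500419-3500518, plus strand): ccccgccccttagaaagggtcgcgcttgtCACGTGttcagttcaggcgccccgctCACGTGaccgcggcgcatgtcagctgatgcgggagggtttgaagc
Neu1 (chr17:34931153-34931252, plus strand): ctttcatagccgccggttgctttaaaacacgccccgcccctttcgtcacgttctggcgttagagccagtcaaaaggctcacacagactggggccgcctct
Lamp1 (chr8:13159061-13159160, plus strand): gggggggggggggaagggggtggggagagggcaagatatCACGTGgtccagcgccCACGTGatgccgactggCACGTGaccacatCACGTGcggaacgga
Ctsd (chr7:142387828-142387927, minus strand): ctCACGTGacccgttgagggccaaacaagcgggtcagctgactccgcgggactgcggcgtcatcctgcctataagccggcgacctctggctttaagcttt
In these stretches of 100 bases Lamp1 holds 4 E-boxes, Mcoln1 holds 2, Ctsd holds 1 and Neu1 holds 0.

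A promoter of 300 bases, 250 of them before the start, was found in the RefSeq table for 31 of the 36 genes. CACGTG, which reads the same on both strands, occurred in 10 of these 31 (32.3%), namely Arsa, Ctsa, Ctsd, Gaa, Gla, Glb1, Lamp1, Lgmn, Mcoln1 and Naglu, and in 8.09% of the 27025 genes with a promoter in the table. The octamer TCACGTGA, which contains it and was added after the promoters had been looked at, occurred in Ctsa, Ctsd, Gla and Mcoln1 (4 of 31, 12.9%) and in 1.12% of all genes. The full CLEAR element was in 0 of 31 (0.370% of all genes), the heat shock element in 0 of 31 (0.662%) and the cyclic AMP response element TGACGTCA in 1 of 31, Gusb (2.03%). These matches are letters in a window and describe no binding. No binding data were used here.

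The 10 B cell markers (such as Ms4a1 and Cd79a) were over 1 TPM in every library of all 5 groups. Their sums ran from 9757 to 10437 TPM in young homozygous and from 8745 to 10319 TPM in young wild-type libraries. In aged mice they ran from 8757 to 15325 TPM in CLL, 5825 to 11691 TPM in non-CLL and 6686 to 16764 TPM in wild-type libraries. Summed macrophage and monocyte markers (Lyz2, Csf1r, Adgre1 and others) came to between 297 and 666 TPM in young homozygous libraries, against 2546, 3723 and 707 TPM in young wild-type libraries 1, 2 and 3, and summed neutrophil markers to between 41.5 and 172 TPM, against 871 to 2671 TPM. None of the 18 macrophage markers was at 0 in all libraries of a young group, and Marco and Vsig4 were under 1 TPM in all homozygous libraries. In the aged table, olfactory receptor genes, which B cells do not use, had a median of 9.66 TPM in CLL library 6 and of 1.08 to 2.71 TPM in the other 4 CLL libraries, of 7.18 to 9.21 TPM in non-CLL libraries and of at most 0.745 TPM in wild-type libraries. Markers of plasmacytoid dendritic cells such as Siglech summed to between 22.4 and 104 TPM in CLL libraries, to between 330 and 1388 TPM in non-CLL libraries, and to 8.58, 265 and 42.1 TPM in aged wild-type libraries 1, 2 and 3. Summed T and NK cell markers came to between 162 and 581 TPM in CLL, 509 and 1108 TPM in non-CLL and 156 and 731 TPM in aged wild-type libraries. Macrophage and monocyte sums ran from 96.5 to 950 TPM in CLL and from 154 to 326 TPM in non-CLL libraries. In aged wild-type libraries they ran from 78.3 to 416 TPM. CLL library 2 held 6383 TPM of neutrophil markers, against 25.8 to 119 TPM in the other CLL libraries. The part of these cells and of this background in the results below was not tested beyond the values given, and in bulk RNA fewer cells of a type and less RNA per cell cannot be told apart.

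In young mice the homozygous B cells held more RNA of a small group of lysosomal genes, led by Gla, the gene of alpha-galactosidase A, and with the calcium channel gene Mcoln1 and the sialidase gene Neu1 next. The genes of 4 of the 7 cathepsins (Ctsc, Ctsh, Ctss and Ctsz) and of legumain, prosaposin, progranulin, acid sphingomyelinase and the cholesterol carrier Npc2 were called lower. Of the 36 genes, 5 were called higher and 9 lower (adjusted p under 0.05, limma with Benjamini-Hochberg adjustment over all 12219 genes tested), which is 13.9% and 25.0% of the genes, beside 38.4% of all genes called higher and 12.6% called lower (51.0% in either direction). The median log2 change of the 36 was -0.13, beside 0.18 for all genes tested. The 2 groups of libraries did not overlap for 16 genes, all higher in 5 and all lower in 11, beside 44.5% and 16.9% of all genes (61.4% in either direction). Fold values and log2 changes are on the scale of log2(TPM + 1), which understates the change of low genes.

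**Figure D1:**
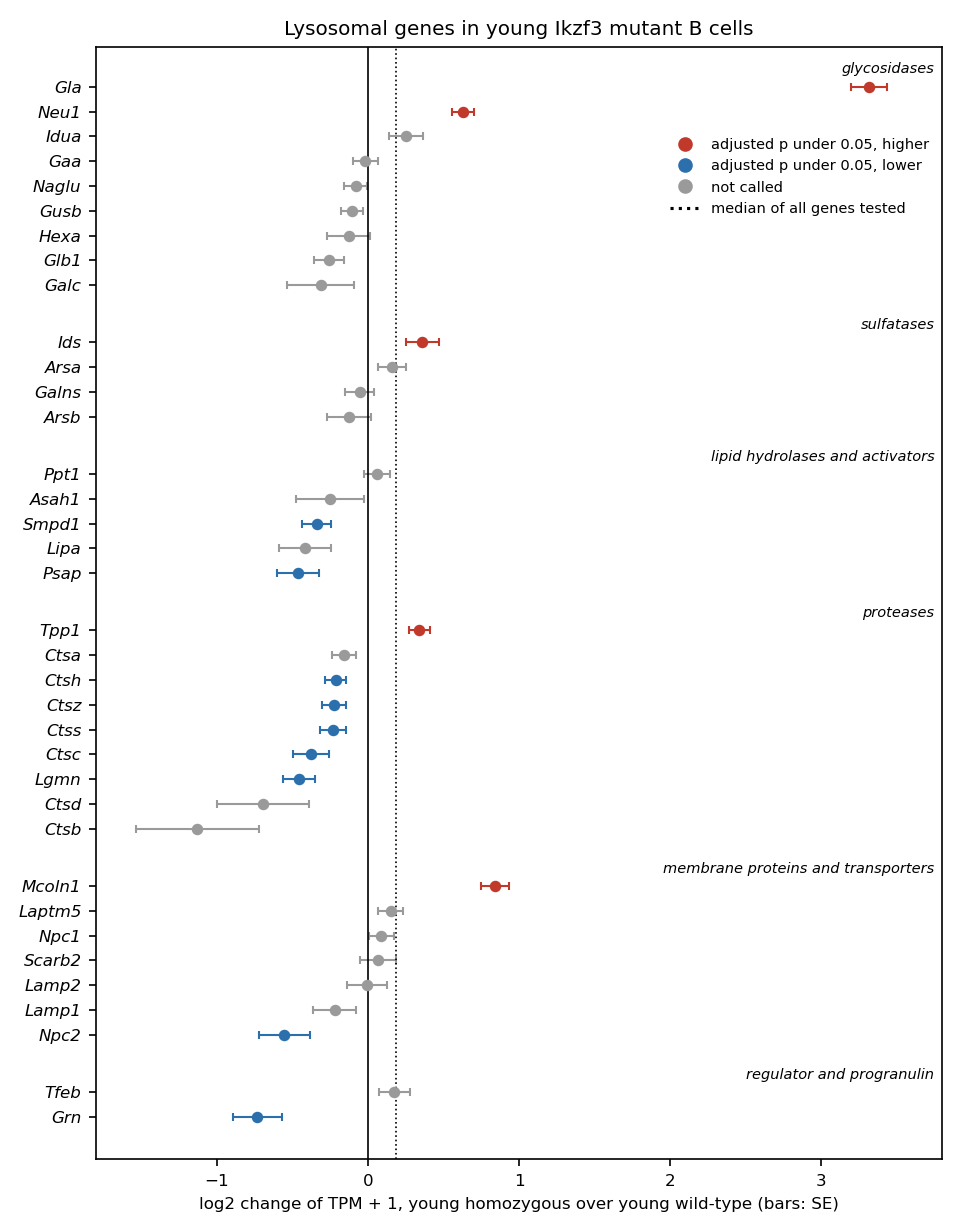
Log2 change of TPM + 1 in young homozygous over young wild-type B cells for the 36 lysosomal genes, grouped by role, with bars of 1 SE and n = 3 libraries a group. Gla lies apart at 3.32, Mcoln1 and Neu1 follow at 0.84 and 0.63, and 8 of the 9 proteases lie left of 0.

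Among the glycosidases, Gla had 42.7, 36.3 and 33.8 TPM in homozygous libraries 1 to 3, against 3.25, 2.64 and 2.73 TPM in wild-type libraries 1 to 3. The groups were far apart, with every homozygous library many times above every wild-type library. Alpha-galactosidase A removes terminal galactose from glycolipids such as globotriaosylceramide, and its loss causes Fabry disease in humans. The log2 change was 3.32 (SE 0.12, adjusted p = 1.43e-06, limma), and the ratio of the mean TPM was 13.1. In wild-type cells Gla was the lowest of the 36 genes, at a mean of 2.87 TPM. Neu1, the lysosomal sialidase, which works in a complex with cathepsin A and beta-galactosidase, had 47.5, 49.1 and 49.5 TPM in homozygous and 32.7, 30.4 and 30.4 TPM in wild-type libraries. These groups did not overlap either, and the log2 change was 0.63 (SE 0.07, adjusted p = 0.000421). The other 7 glycosidases were not called. Their log2 changes lay between -0.31 (Galc, galactosylceramidase) and 0.25 (Idua, which cuts iduronic acid from dermatan and heparan sulfate). Glb1, the beta-galactosidase gene, had 21.8, 17.7 and 21.4 TPM in homozygous, against 24.6, 24.5 and 24.1 TPM in wild-type libraries; all homozygous values were lower, at an adjusted p of 0.052.

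Gla sits in a dense part of chromosome X (134588169 to 134601005 in GRCm38.p6). Rpl36a, a ribosomal protein gene, lies 106 bases from it, and Btk, the kinase of the B cell receptor, lies beyond Rpl36a at a distance of 2025 bases. Hnrnph2, which encodes a splicing factor and starts on the other side, had 154, 166 and 158 TPM in homozygous, against 91.0, 100.1 and 102 TPM in wild-type libraries. It rose with Gla but by less (log2 change 0.70, SE 0.08, adjusted p = 0.000333). Btk had 271, 275 and 287 TPM in homozygous, against 199, 192 and 219 TPM in wild-type libraries, and rose too (log2 change 0.45, SE 0.08, adjusted p = 0.00195). Rpl36a, with 1159.9, 1000.4 and 947 TPM in homozygous and 1328, 1467 and 1685 TPM in wild-type libraries, fell (log2 change -0.53, SE 0.11, adjusted p = 0.00539). Whether the counting used strand is not given in the sources used here, so reads of genes that overlap cannot be assigned with certainty; Gla, Neu1, Mcoln1, Grn, Lgmn and Npc2 overlap no other gene of the RefSeq table, and 17 of the 36 genes do.

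One of the 4 sulfatases was called. Ids, the iduronate sulfatase that is lacking in Hunter syndrome, had 20.9, 27 and 24.6 TPM in homozygous, against 17.3, 19.6 and 18.7 TPM in wild-type libraries. The lowest homozygous library was close to the highest wild-type one, and the log2 change was 0.36 (SE 0.11, adjusted p = 0.0228). Its call was lost on leaving out homozygous library 2 (adjusted p = 0.0902) or 3 (0.0756), or wild-type library 1 (0.0869). Arsa, which hydrolyses sulfatide, Arsb and Galns, which remove sulfate from glycosaminoglycans, had log2 changes of 0.16, -0.13 and -0.06 and were not called.

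Of the 5 lipid hydrolases and activators, 2 were called lower and 0 higher. Psap encodes prosaposin, the precursor of the saposins that present lipids to hydrolases, and was the highest of the 36 genes in both young groups. It had 800.2, 867 and 771 TPM in homozygous, against 1137, 1357 and 906 TPM in wild-type libraries. All homozygous values were lower, and the log2 change was -0.46 (SE 0.14, adjusted p = 0.0229). The call was lost on leaving out wild-type library 1 (adjusted p = 0.0678) or 2 (0.0621), or homozygous library 1 (0.0742) or 3 (0.0842). Smpd1, acid sphingomyelinase, had 11.6, 11.9 and 12.3 TPM in homozygous, against 14.4, 15.2 and 16.5 TPM in wild-type libraries. It fell by 0.34 on the log2 scale (SE 0.09, adjusted p = 0.0155) with no overlap of the groups. Lipa, the acid lipase for cholesteryl esters, Asah1, acid ceramidase, and Ppt1, which removes palmitate from proteins, were not called, with log2 changes of -0.42, -0.25 and 0.06.

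Of the 9 proteases, 5 were called lower. Lgmn, the asparaginyl endopeptidase that matures cathepsins, had 135, 153 and 146 TPM in homozygous, against 208, 219 and 170.5 TPM in wild-type libraries. It fell by 0.46 on the log2 scale (SE 0.11, adjusted p = 0.00714). Ctsc, which activates granule proteases, had 129, 157 and 149 TPM in homozygous, against 186, 219.8 and 163 TPM in wild-type libraries (log2 change -0.38, SE 0.12, adjusted p = 0.0275). Here the highest homozygous library was just under the lowest wild-type one. Ctss, which cuts the invariant chain in B cells, had 809, 823 and 789 TPM in homozygous, against 924, 1038 and 888 TPM in wild-type libraries (log2 change -0.23, SE 0.09, adjusted p = 0.0479). Ctsz, a carboxypeptidase, had 267, 288 and 289 TPM in homozygous, against 330.3, 349 and 309 TPM in wild-type libraries (log2 change -0.23, SE 0.08, adjusted p = 0.0427). Ctsh, an aminopeptidase, was called as well, at 316 to 324 TPM in homozygous and 365 to 379 TPM in wild-type libraries, and these 4 cathepsins had no overlap between the groups. The 4 calls were weak: leaving out any library except wild-type library 3 ended those of Ctss, Ctsz and Ctsh (adjusted p between 0.0502 and 0.184), and Ctsc was not called without wild-type library 1 (0.0643) or 2 (0.0838), or homozygous library 1 (0.0979) or 3 (0.0642).

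The largest protease changes were not called. Ctsb, a cysteine protease, had 94.0, 144 and 74.6 TPM in homozygous, against 242, 319.6 and 139 TPM in wild-type libraries (log2 change -1.13, SE 0.41, adjusted p = 0.0714), and Ctsd, an aspartic protease, had 133, 176 and 108 TPM in homozygous, against 235, 299.8 and 152 TPM in wild-type libraries (log2 change -0.69, SE 0.31, adjusted p = 0.112). Both differed widely between the wild-type libraries, and the groups overlapped. Tpp1, the tripeptidyl peptidase lacking in a form of neuronal ceroid lipofuscinosis, was the one protease that rose, with 61.6, 59.2 and 62.6 TPM in homozygous, against 49.3, 48.0 and 47.0 TPM in wild-type libraries (log2 change 0.34, SE 0.07, adjusted p = 0.00406). It was not called after rescaling with TMM factors (adjusted p = 0.118) or without wild-type libraries 1 and 2 (0.0507). Ctsa, the protective protein of the sialidase complex, stood at 91.7 to 96.3 TPM in homozygous and 96.3 to 110.3 TPM in wild-type libraries and was not called.

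Of the membrane proteins and transporters, Mcoln1, which encodes the calcium channel TRPML1, had 52.0, 55.4 and 63.6 TPM in homozygous, against 33.2, 30.4 and 30.2 TPM in wild-type libraries. The groups were well apart, and the log2 change was 0.84 (SE 0.09, adjusted p = 0.00035). Npc2, which hands cholesterol to Npc1 for export, had 71.0, 64.2 and 59.4 TPM in homozygous, against 97.5, 120.1 and 74.2 TPM in wild-type libraries. Npc2 fell by 0.55 on the log2 scale (SE 0.17, adjusted p = 0.0295), while Npc1, its partner in the membrane, stood at 17.5 to 18.8 TPM in homozygous and 16.7 to 17.8 TPM in wild-type libraries and was not called. Laptm5, a haematopoietic protein that sends antigen receptors to the lysosome, was among the highest of the 36 genes in level and was not called either (638, 701 and 663 TPM in homozygous, against 579, 586 and 641 TPM in wild-type libraries; log2 change 0.15). Lamp1 and Lamp2, the main glycoproteins of the lysosomal membrane, and Scarb2, the carrier of beta-glucocerebrosidase, had log2 changes of -0.22, -0.01 and 0.07 and overlapping groups. Npc2 was not called without wild-type library 1 (adjusted p = 0.0814) or without any 1 homozygous library (0.0528 to 0.0989).

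Tfeb had 53.1, 65.1 and 69.1 TPM in homozygous, against 56.2, 53.8 and 54.6 TPM in wild-type libraries. The groups overlapped, and the log2 change of 0.17 (SE 0.10, adjusted p = 0.177) turned to -0.03 when libraries were rescaled with TMM factors. Without homozygous library 1 Tfeb was called, at a log2 change of 0.28 (adjusted p = 0.0154). Grn, whose product progranulin is carried to the lysosome and cut into granulins there, had 72.1, 71.8 and 61.5 TPM in homozygous, against 116, 143 and 90.1 TPM in wild-type libraries. It showed the largest called fall of the 36 genes (log2 change -0.73, SE 0.16, adjusted p = 0.0079) with no overlap.

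**Figure D2:**
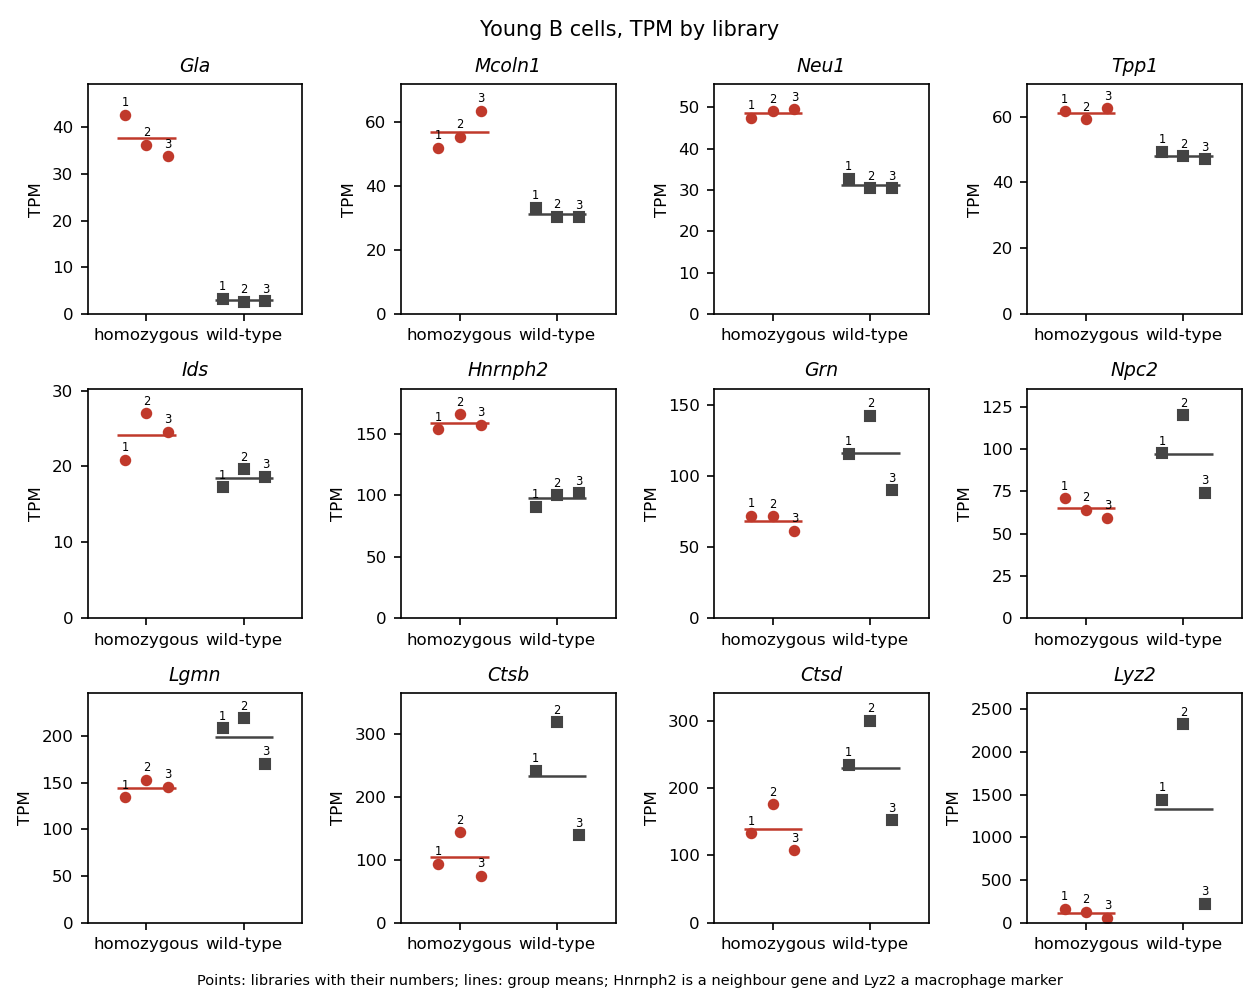
TPM by library in young homozygous (left) and young wild-type (right) B cells for 10 of the lysosomal genes, for Hnrnph2, the neighbour of Gla, and for the macrophage marker Lyz2, with lines at the group means. Every homozygous value of Gla, Mcoln1, Neu1 and Tpp1 is above every wild-type value. Grn, Npc2, Ctsb and Ctsd are highest in wild-type library 2 and lowest in wild-type library 3, the order that Lyz2 shows.

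Which genes were called lower depended on the wild-type libraries included. Lyz2, lysozyme of macrophages, had 163, 129 and 58.2 TPM in homozygous, against 1443, 2330.0 and 222 TPM in wild-type libraries. Of the 36 lysosomal genes, 18 (50.0%) had the same order of the wild-type libraries as Lyz2, with library 2 highest and library 3 lowest, beside 17.3% of all 12219 genes. Without wild-type libraries 1 and 2, which leaves 1 wild-type library whose spread is assumed to be that of the others, 3 genes were called higher (Gla, Mcoln1 and Neu1) and 0 lower. There Grn had a log2 change of -0.40 (adjusted p = 0.0632), Smpd1 of -0.44 (0.0632), Lgmn of -0.24 (0.170), Psap of -0.16 (0.331) and Npc2 of -0.20 (0.308), whereas Gla kept 3.37, Mcoln1 0.89 and Neu1 0.66. Leaving out wild-type library 1, 2 or 3 gave 3, 4 or 17 of the 36 genes called lower. Leaving out homozygous library 1, 2 or 3 gave 4, 6 or 3. Grn, Lgmn and Smpd1 were called lower in all 6 of these fits. Of all genes, between 1042 of 12472 (without homozygous library 3) and 1876 of 12487 (without wild-type library 3) were called lower there.

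The share of higher among all calls was 75.3% with TPM as deposited and 51.3% after rescaling with TMM factors, which moved the median of all genes by about the size of that median (0.18, against -0.00406 after rescaling). After rescaling, 3 of the 36 genes were called higher (Gla, Mcoln1 and Neu1) and 16 lower, beside 2836 and 2697 of all 12216 genes tested. Gla, Mcoln1 and Neu1 were called higher in all 13 alternative fits, with log2 changes between 3.14 and 3.67, 0.64 and 0.91, and 0.43 and 0.66. Promoters with CACGTG were found for 2 of the 5 genes called higher (Gla and Mcoln1), for 1 of the 8 called lower that have a promoter in the table (Lgmn) and for 7 of the 18 not called.

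The rest of the lysosomal pathway was counted in the same comparison, in which 38.4% of all genes were called higher and 12.6% lower. Of 25 other acid hydrolases, 0 were called higher and 9 lower, with a median log2 change of -0.30. The 3 largest were Ctsw, a cathepsin of cytotoxic lymphocytes (-1.32, adjusted p = 0.0435), Smpdl3a, a relative of acid sphingomyelinase (-1.24, adjusted p = 0.00387), and the hyaluronidase Hyal2 (-0.76, adjusted p = 0.00319). Ctsw was not called without wild-type library 3 or any 1 homozygous library (limma, adjusted p between 0.0597 and 0.124). Summed T and NK cell markers came to between 47.3 and 56.9 TPM in young homozygous and 59.1 and 147 TPM in young wild-type libraries. Their part in the fall of Ctsw was not tested. Without wild-type libraries 1 and 2, which leaves 1 wild-type library, Ctsw had a log2 change of -0.98 and Hyal2 of -0.68. The V-ATPase, the proton pump, had 4 of 17 subunit genes called higher and 4 lower. Atp6v0a1, a subunit of the membrane part, had 68.1, 62.2 and 72.1 TPM in homozygous, against 38.2, 32.9 and 40.8 TPM in wild-type libraries (log2 change 0.84, SE 0.10, adjusted p = 0.000431), whereas Atp6v1g1 and Atp6v1f, of the part in the cytosol, had log2 changes of -0.56 (adjusted p = 0.00115) and -0.39 (adjusted p = 0.00551). The log2 change of Atp6v1f was -0.28 without wild-type libraries 1 and 2.

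Other lysosomal membrane genes had 8 of 23 called higher and 2 lower. Lamp3, a LAMP family member of dendritic cells, stood at 6.07, 6.99 and 6.80 TPM in homozygous and 3.08, 2.92 and 3.28 TPM in wild-type libraries (log2 change 0.89, SE 0.13, adjusted p = 0.000843). Slc38a9, the amino acid transporter that reports arginine to mTORC1, had 19.6, 20.2 and 23.6 TPM in homozygous, against 12.8, 11.4 and 14.0 TPM in wild-type libraries (log2 change 0.68, SE 0.11, adjusted p = 0.00141), and Slc15a3, a peptide and histidine transporter, fell (log2 change -0.81, SE 0.16, adjusted p = 0.00319). Without wild-type libraries 1 and 2 Slc15a3 had a log2 change of -0.48. The relatives of Mcoln1, named here after their values were seen, were called higher as well. Mcoln2 had 51.9, 43.1 and 48.4 TPM in homozygous, against 35.1, 33.1 and 33.2 TPM in wild-type libraries (log2 change 0.48, SE 0.09, adjusted p = 0.00229), and Mcoln3 had 11.7, 12.6 and 15.1 TPM in homozygous, against 9.75, 9.68 and 10.5 TPM in wild-type libraries (log2 change 0.36, SE 0.11, adjusted p = 0.0286). After rescaling with TMM factors Mcoln2 kept a call (log2 change 0.28, adjusted p = 0.0307) and Mcoln3 did not (0.17, adjusted p = 0.217).

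In the mannose 6-phosphate pathway 5 of 9 genes were called higher and 0 lower (38.4% and 12.6% of all genes), led by Gga2 (0.56, adjusted p = 0.00224) and Gga3 (0.56, adjusted p = 0.00318), which load the receptors into transport vesicles, and by the receptor gene Igf2r (0.39, adjusted p = 0.0183). The call of Igf2r was lost on leaving out homozygous library 2 (adjusted p = 0.0644) or 3 (0.0622), or wild-type library 1 (0.0540), and after rescaling (0.137). Without wild-type libraries 1 and 2 Gga2, Gga3 and Igf2r had log2 changes of 0.40, 0.34 and 0.46. Among 16 genes of the Tfeb relatives and of nutrient sensing on the lysosome, 6 were called higher and 4 lower. Fnip1 (0.54, adjusted p = 0.0107) and Flcn (0.51, adjusted p = 0.00107), which form the folliculin complex that controls the relatives of Tfeb, rose, and Lamtor1, the anchor of the Ragulator complex, fell (log2 change -0.44, SE 0.07, adjusted p = 0.00145). Fnip1 was not called without homozygous library 3 (adjusted p = 0.0501) or after rescaling (0.0562). Its log2 change was 0.33 without wild-type libraries 1 and 2.

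The aged table shows the same genes in CLL cells, in non-CLL cells and in wild-type B cells. Libraries differed more there. The median coefficient of variation of the 36 genes was 33.8% in CLL, 19.3% in non-CLL and 31.7% in aged wild-type libraries, against 5.88% in young homozygous and 8.73% in young wild-type libraries. Psap and Ctsz were the highest of the 36 genes in all 3 aged groups, with Psap at means of 4124, 3341 and 3346 TPM in CLL, non-CLL and wild-type cells, which differ by less than the spread within the groups. The summed TPM of the 36 genes ran from 10253 to 14622 in CLL, from 8243 to 12476 in non-CLL and from 9205 to 14087 in wild-type libraries. The 3 comparisons share libraries, so their values are set side by side and are not independent of each other.

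In CLL cells, Neu1 was higher than in aged wild-type B cells, while Lgmn and the membrane glycoprotein Lamp1 were lower. These were the 3 genes called among the 36 (1 higher, 2.78%, and 2 lower, 5.56%), beside 2.94% of all 21202 genes called higher and 0.604% called lower (3.54% in either direction). The median log2 change of the 36 was -0.17, beside 0.93 for all genes tested. The groups did not overlap for 1 gene that was all higher and 3 that were all lower, beside 29.0% and 2.55% of all genes (31.5% in either direction).

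Neu1 had 104, 44.0, 50.3, 57.7 and 34.9 TPM in CLL libraries 1, 2, 4, 5 and 6, against 24.1, 4.56 and 17.2 TPM in wild-type libraries 1 to 3. Every CLL library was above every wild-type library, and the log2 change was 2.02 (SE 0.43, adjusted p = 0.0065, limma). Lgmn had 210.5, 94.8, 93.1, 239 and 245 TPM in CLL and 448, 814 and 364 TPM in wild-type libraries, with no overlap (log2 change -1.66, SE 0.36, adjusted p = 0.00749). Lamp1 had 105, 133, 226, 114 and 190.4 TPM in CLL and 226, 403 and 374 TPM in wild-type libraries; CLL library 4 and wild-type library 1 almost met (log2 change -1.14, SE 0.32, adjusted p = 0.0383). Ctsa was the other gene with all CLL libraries lower (97.1, 84.0, 104, 78.8 and 68.2 TPM, against 118, 138 and 135 TPM in wild-type libraries), and it was not called (adjusted p = 0.127). None of the 3 calls held when the filter was raised to 20 TPM (adjusted p between 0.0599 and 0.0877), when the olfactory background was subtracted (0.0658 to 0.109) or with the library numbers as a block (0.0574 to 0.0845), although the log2 changes stayed between 1.95 and 2.54 for Neu1, between -2.09 and -1.66 for Lgmn and between -1.35 and -1.14 for Lamp1 in those fits. Lamp1 was not called without CLL library 5 (limma, adjusted p = 0.0645) or wild-type library 3 (0.194) either. The block fit of this comparison rests on library numbers 1 and 2, the only shared ones, which belong to different mice. It therefore cannot decide whether a call holds.

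Gla had 40.1, 10.4, 9.47, 7.50 and 9.33 TPM in CLL and 2.57, 12.7 and 0.192 TPM in wild-type libraries. CLL library 1 stood apart from the other 4, and wild-type library 2 lay above all CLL libraries but the first. The log2 change was 1.79 (SE 0.66, adjusted p = 0.0591), and Gla was called without CLL library 4 (1.88, adjusted p = 0.0311) or without wild-type library 2 (2.70, adjusted p = 0.00166). Tfeb had 15.5, 15.0, 28.8, 19.1 and 15.8 TPM in CLL and 23.3, 6.78 and 26.5 TPM in wild-type libraries, with wild-type library 2 lowest. Its log2 change of 0.15 (adjusted p = 0.814) was -0.42 without that library and -0.32 after rescaling with TMM factors. Grn, which was lower in young mutant cells, had 470.0, 349, 1026, 418 and 510.1 TPM in CLL and 134, 1029 and 116 TPM in aged wild-type libraries, where library 2 stood far above the other 2 (log2 change 1.02, SE 0.80, adjusted p = 0.364). The remaining genes lay between -1.04 (Ids) and 0.85 (Arsa) and were not called. The share of higher among all calls was 83.0%, against 47.5% after background subtraction, 95.0% with a pseudocount of 0.1 TPM and 64.4% with the filter at 20 TPM.

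**Figure D3:**
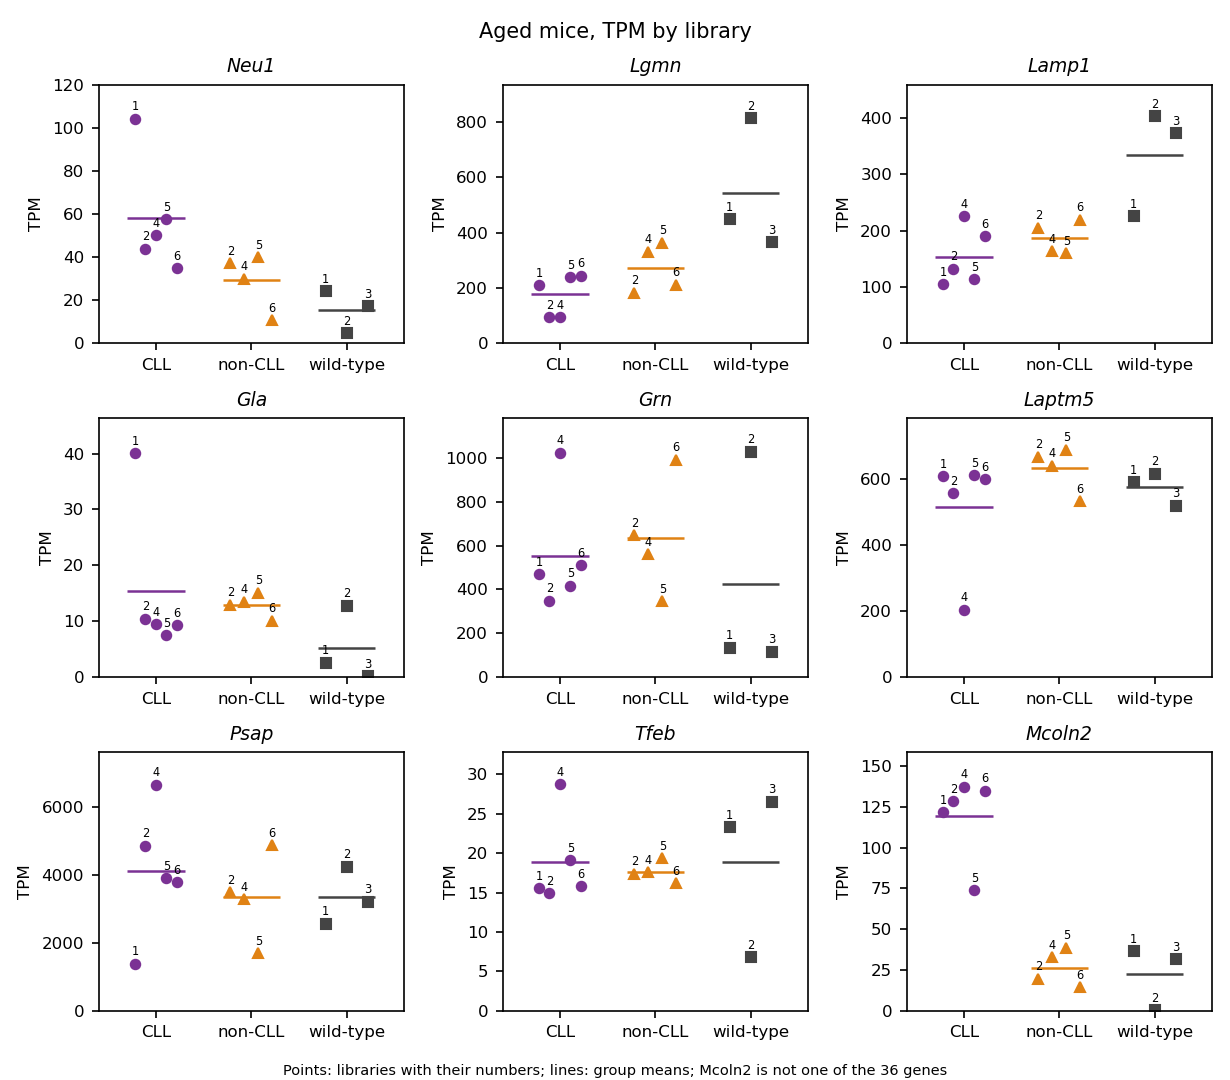
TPM by library in CLL (left), non-CLL (middle) and wild-type (right) cells of aged mice for 8 of the lysosomal genes and for Mcoln2, with lines at the group means. Neu1 is higher in every CLL library than in every wild-type library, Lgmn and Lamp1 run the other way, and CLL library 1 carries the high mean of Gla.

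Between CLL cells and the non-CLL B cells of the same mice, 0 of the 36 genes were called higher and 0 lower (limma, adjusted p under 0.05), beside 0.744% and 5.02% of all 22316 genes (5.77% in either direction). This fit left out the pairing by mouse. At an unadjusted p under 0.05 there were 10 of the 36 genes, beside 8794 of all 22316. The median log2 change was -0.19, beside -0.77 for all genes. After rescaling with TMM factors these medians were 0.72 and -0.08, so the sign for the 36 depended on the scaling. The groups did not overlap for 2 genes, both all lower in CLL cells, beside 7.51% of all genes all lower and 1.17% all higher (8.68% in either direction). Ctsa had 97.1, 84.0, 104, 78.8 and 68.2 TPM in CLL and 148, 176, 142 and 110.3 TPM in non-CLL libraries (log2 change -0.73, SE 0.26, adjusted p = 0.0645). Mcoln1 had 20.0, 27.6, 31.0, 29.4 and 38.5 TPM in CLL and 42.7, 41.7, 40.9 and 53.5 TPM in non-CLL libraries (log2 change -0.61, SE 0.30, adjusted p = 0.125). Neu1, with 37.3, 30.1, 40.0 and 10.6 TPM in non-CLL libraries 2, 4, 5 and 6, had a log2 change of 1.01 in CLL cells (SE 0.37, adjusted p = 0.0681), and Gla, with 12.9, 13.5, 15.1 and 10.1 TPM there, one of -0.04, which changed sign in several alternatives. Tfeb, at 17.4, 17.6, 19.4 and 16.2 TPM in non-CLL libraries, had a log2 change of 0.05.

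Since the series pairs these cells by mouse, the fit with the mouse number as a block is given too. It called 1 of the 36 genes, Ctsh, lower in CLL cells (585, 252, 273, 184 and 144 TPM in CLL, against 454, 329, 499 and 409.9 TPM in non-CLL libraries; log2 change -1.01, adjusted p = 0.0460), and 697 of all genes, against 1287 without the block. Leaving out CLL library 6, the one with the olfactory background of non-CLL libraries, called Ctsd and Neu1 higher and Ctsa, Galc and Mcoln1 lower. Of all 22078 genes tested there, 11118 were called, 382 higher and 10736 lower. Leaving out CLL library 1 called Ctsh lower. After rescaling with TMM factors Ctsa and Mcoln1 had log2 changes of 0.18 and 0.28, and the share of higher among all calls was 69.7%, against 12.9% with TPM as deposited.

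Non-CLL B cells of mutant mice, set against aged wild-type B cells, had Galc and Gla called higher and Lgmn, Ctsc and Lamp1 called lower. That is 2 genes higher (5.56%) and 3 lower (8.33%), beside 55.8% and 1.48% of all 22150 genes (57.3% in either direction), and the median log2 change of the 36 was 0.05, beside 1.65 for all genes tested. The groups did not overlap for 3 genes all higher and 6 all lower, beside 53.7% and 2.33% of all genes (56.0% in either direction). Galc, which splits galactosylceramide, had 16.1, 14.9, 7.77 and 8.26 TPM in non-CLL and 4.47, 2.78 and 1.63 TPM in wild-type libraries (log2 change 1.68, SE 0.43, adjusted p = 0.00563), and Gla had 12.9, 13.5, 15.1 and 10.1 TPM in non-CLL and 2.57, 12.7 and 0.192 TPM in wild-type libraries (log2 change 1.83, SE 0.69, adjusted p = 0.0425). The olfactory background in non-CLL libraries was 7.18 to 9.21 TPM. After subtraction of that background the log2 changes were -0.13 for Galc and 0.37 for Gla, and neither was called; Gla was also not called without any 1 of the 4 non-CLL libraries or of wild-type libraries 1 and 3 (adjusted p between 0.0502 and 0.169).

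Lgmn had 182, 331, 363 and 212 TPM in non-CLL, against 448, 814 and 364 TPM in wild-type libraries (log2 change -0.96, SE 0.34, adjusted p = 0.0291), so that all non-CLL values were below all wild-type values by a narrow margin. Ctsc had 196, 222, 280.5 and 186 TPM in non-CLL, against 319.5, 564 and 336 TPM in wild-type libraries (log2 change -0.85, SE 0.26, adjusted p = 0.0171). Lamp1 had 206, 164, 159.9 and 219 TPM in non-CLL, against 226, 403 and 374 TPM in wild-type libraries (log2 change -0.80, SE 0.26, adjusted p = 0.0207). Wild-type library 2 was the highest for all 3 genes, and without it none was called (Lgmn -0.63, adjusted p = 0.127; Ctsc -0.59, 0.0545; Lamp1 -0.65, 0.0692). Lgmn was not called without non-CLL library 2 (0.0719) or 6 (0.0505), and Lamp1 not without non-CLL library 4 (0.0553) or wild-type library 3 (0.0882). Tfeb had a log2 change of 0.10 and Neu1 of 1.01, with adjusted p = 0.861 and 0.176. Smpd1 ran at 34.8, 32.8, 32.5 and 28.5 TPM in non-CLL, against 28.5, 18.2 and 19.3 TPM in wild-type libraries. All were higher, by a narrow margin for the lowest (28.53 against 28.49 TPM), and Smpd1 was not called (limma, adjusted p = 0.112). The share of higher among all calls was 97.4%. It was 68.9% after rescaling with TMM factors, 72.1% after background subtraction and 81.9% with the filter at 20 TPM. Rescaling called 0 of the 36 genes higher and 23 lower, beside 9462 higher and 4268 lower of all 22109 genes tested. The median log2 change of the 36 was then -1.12, beside 0.91 for all genes.

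**Figure D4:**
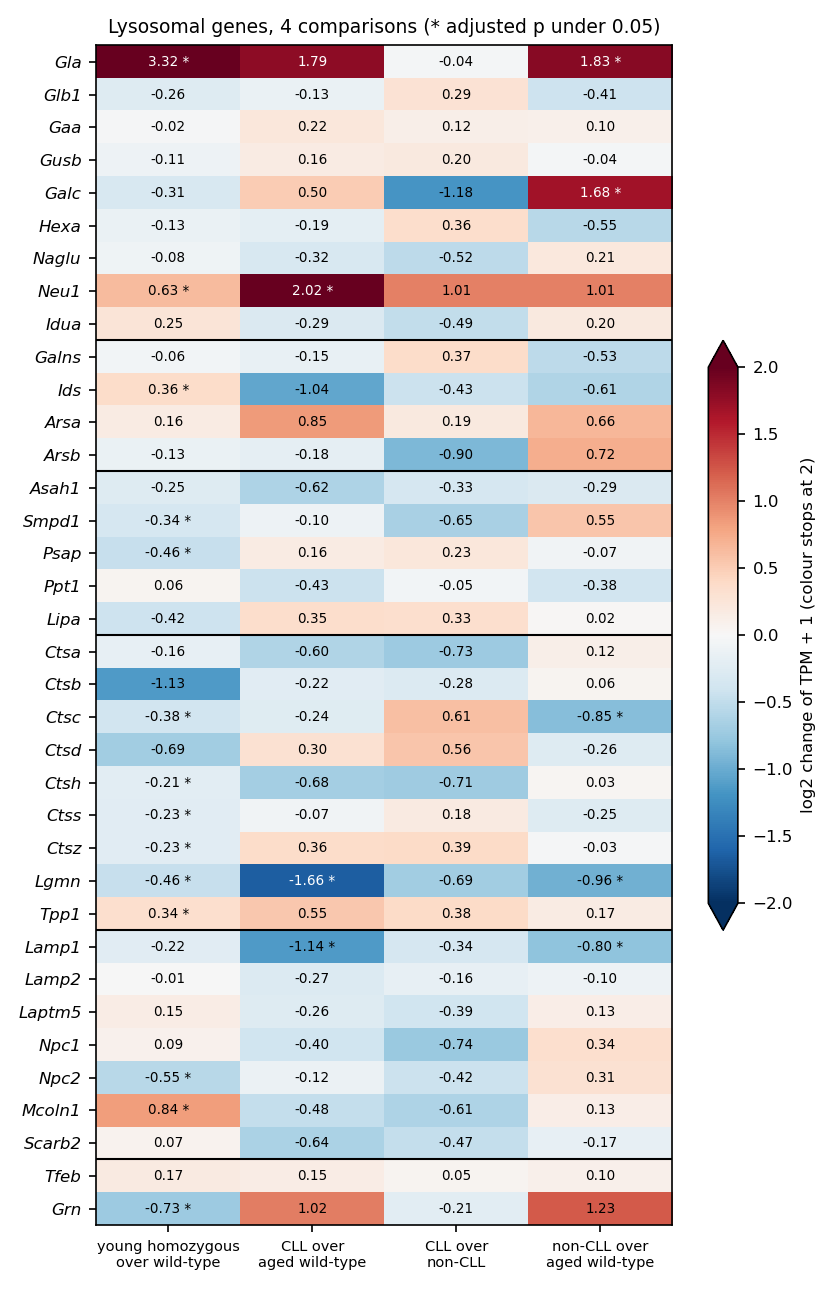
Log2 change of TPM + 1 for the 36 lysosomal genes (rows, by role) in 4 comparisons (columns), with an asterisk where the adjusted p is under 0.05. Gla and Neu1 are red in the young comparison and in both comparisons of mutant with aged wild-type cells, Lgmn is blue throughout, and most other rows are pale or differ in sign between columns.

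Calls among lysosomal genes outside the 36 stand beside 5.77% of all genes called between CLL and non-CLL cells and 3.54% against wild-type cells. Between CLL and non-CLL cells, Mcoln2, a relative of Mcoln1 expressed in lymphocytes, had 122, 129, 137, 73.8 and 135 TPM in CLL and 19.7, 33.0, 38.7 and 14.3 TPM in non-CLL libraries. Every CLL library was far above every non-CLL library, with a log2 change of 2.2 (SE 0.31, adjusted p = 9.68e-05), which was 2.18 with the mouse number as a block (adjusted p = 0.00510) and not called in 1 fit of all 3 aged groups (adjusted p = 0.0867). In aged wild-type libraries Mcoln2 had 36.4, 0.303 and 31.7 TPM, with library 2 near 0. Against wild-type cells, Mcoln3 rose in CLL cells (4.40, 11.1, 16.4, 30.1 and 29.0 TPM in CLL, 3.30, 1.77 and 2.60 TPM in wild-type libraries; log2 change 2.2, SE 0.55, adjusted p = 0.0187), and was not called without CLL library 5 (adjusted p = 0.0596), after background subtraction (0.154) or with the library numbers as a block (log2 change 1.23, adjusted p = 0.312). Atp6v1h, a V-ATPase subunit, was lower in CLL cells than in wild-type cells (log2 change -1.43, SE 0.36, adjusted p = 0.0173) and than in non-CLL cells (log2 change -1.14, SE 0.31, adjusted p = 0.0378), with 34.6, 51.6, 46.6, 17.9 and 43.6 TPM in CLL, 67.9, 87.3, 66.8 and 114 TPM in non-CLL and 87.1, 87.4 and 133 TPM in wild-type libraries. The call against wild-type cells was lost without CLL library 5 (limma, adjusted p = 0.0521) or wild-type library 3 (0.161). It was also lost with the filter at 20 TPM (0.0607), after background subtraction (0.0657) and with the block (log2 change -1.03, adjusted p = 0.218). For Mcoln3 and Atp6v1h against wild-type cells the block rests on library numbers 1 and 2, shared by different mice, and cannot decide. The call against non-CLL cells was lost without CLL library 1 or 5 or non-CLL library 2, 4 or 6 (0.0568 to 0.0993), with a pseudocount of 0.1 TPM (0.0688), with the filter at 20 TPM (0.0641) and after background subtraction (0.0923), and the log2 change was -0.24 after rescaling with TMM factors (adjusted p = 0.687).

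In all, of the other acid hydrolases 1 of 24 was called between CLL and non-CLL cells, lower, of the V-ATPase genes 2 of 16, both lower, of the other membrane genes 1 of 24, higher, of the mannose 6-phosphate genes 1 of 9, lower, and of the Tfeb relatives and nutrient sensors 1 of 13, lower, beside 0.744% of all genes called higher and 5.02% lower. Ctsl, the cathepsin L gene, had 1.97, 14.5, 3.72, 1.65 and 12.3 TPM in CLL and 87.0, 91.7, 88.2 and 279 TPM in non-CLL libraries (log2 change -4.32, SE 0.59, adjusted p = 0.00259), beside the plasmacytoid dendritic cell marker Siglech at 1.32, 14.6, 1.61, 3.39 and 18.1 TPM in CLL and 298, 288, 137 and 784 TPM in non-CLL libraries. Tcirg1, another V-ATPase subunit (log2 change -1.34, SE 0.29, adjusted p = 0.00914), Gnptab, which adds the mannose 6-phosphate tag (log2 change -1.35, SE 0.31, adjusted p = 0.0156), and Fnip2, a partner of folliculin (log2 change -1.72, SE 0.53, adjusted p = 0.0494), were lower in CLL cells. After rescaling with TMM factors none of the 3 was called (adjusted p = 0.452 for Tcirg1, 0.434 for Gnptab and 0.0910 for Fnip2), and with the mouse number as a block Fnip2 was not called (log2 change -1.55, adjusted p = 0.0643). Leaving out any 1 of the 4 non-CLL libraries or of CLL libraries 1, 2, 4 and 5 ended the call of Fnip2 (adjusted p between 0.0709 and 0.127). Against wild-type cells, CLL cells had 1 of 16 V-ATPase genes called, lower, and 1 of 24 other membrane genes, higher, with 0 calls in the other 3 lists, beside 2.94% of all genes called higher and 0.604% lower.

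Non-CLL cells, against aged wild-type cells, had 7 of 24 other acid hydrolases called higher and 0 lower, 0 and 2 of 16 V-ATPase genes, 3 and 0 of 24 other membrane genes, 1 and 0 of 9 mannose 6-phosphate genes, and 6 and 0 of 13 Tfeb relatives and nutrient sensors, beside 55.8% of all genes called higher and 1.48% lower. The largest were Ctsl (3.57, adjusted p = 0.00637), Ctsk, cathepsin K of osteoclasts (3.37, adjusted p = 0.000136), Gpnmb, a glycoprotein of macrophage lysosomes (2.91, adjusted p = 5.43e-05), and Tfec, a relative of Tfeb (2.82, adjusted p = 0.00055). Also higher were Ctsf, cathepsin F (2.08), the sorting receptor gene Sort1 (2.51), Fnip2 (2.37), Rragd, a Rag GTPase (1.42), Mcoln3 (1.5) and Lamp3 (1.09), with adjusted p of 0.00108, 0.00558, 0.00065, 0.0309, 0.0158 and 0.0482. After rescaling with TMM factors Ctsl (2.47, adjusted p = 0.0759), Rragd (0.57, 0.421), Mcoln3 (0.56, 0.385) and Lamp3 (0.07, 0.913) were not called. Mcoln3 (-0.38) and Lamp3 (-0.51) turned negative after background subtraction, Mcoln3 was not called without non-CLL library 4 (adjusted p = 0.0594), and Lamp3 not without non-CLL library 2, 4 or 6 or wild-type library 2 or 3 (0.0578 to 0.147). The lower V-ATPase genes were Atp6v1g1 (-0.84, adjusted p = 0.0304) and Atp6v1c1 (-0.77, adjusted p = 0.0212). Atp6v1g1 was not called without non-CLL library 4 (adjusted p = 0.0776) or wild-type library 1 (0.116) or 3 (0.147), Atp6v1c1 not without non-CLL library 4 (0.0642) or wild-type library 2 (0.0618) or 3 (0.0696), and Rragd not without non-CLL library 2, 4 or 5 or wild-type library 2 or 3 (0.0682 to 0.110). Ctsk stood at 6.91, 11.1, 10.7 and 32.7 TPM and Gpnmb at 7.03, 7.91, 6.68 and 14.1 TPM in non-CLL libraries, where the olfactory background was 7.18 to 9.21 TPM, and at most 0.749 and 0.638 TPM in wild-type libraries. After background subtraction, Ctsk, Ctsl, Tfec and Sort1 were not called (adjusted p between 0.0627 and 0.506). Siglech had 298, 288, 137 and 784 TPM in non-CLL and 0, 126 and 1.89 TPM in wild-type libraries.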

How the data were processed

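Of the 30 samples, the 18 RNA-seq libraries were used; the 12 chromatin samples were not analysed here, and 3 of them, whose labels conflict, were put in no group. The authors deposited 2 tables of TPM, 1 for young and 1 for aged mice, each scaled by the authors; per the labels the young libraries were made with the TruSeq RNA Sample Prep Kit v2. Per the submitters' processing notes, which state no roles, the tools named are MACS2 2.2.0, STAR 2.4.0.1 and also Bowtie2 2.3.4.1, with build mm10. The sources used here do not give the quantifier, annotation or strandedness. TPM keeps no depth, so no interval for counting error is given. Left out were 26 and 25 entries of the young and aged tables whose name is a number and 887 unnamed entries of the young table (4.44% to 9.36% of TPM per library).

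Each table was tested on its own, on log2(TPM + 1), for genes reaching 1 TPM in a number of libraries equal to the size of the smaller group, with limma 3.58.1 in R 4.3.3 (trend, robust, two-sided) and Benjamini-Hochberg adjustment over all genes tested; calls have an adjusted p under 0.05. The procedure was tested on simulated data. Alternatives were a pseudocount of 0.1 TPM, no filter or 20 TPM, TMM rescaling, library weights, background subtraction (median of olfactory receptor genes), a fit of all 3 aged groups, library numbers as a block, heterozygous mutant libraries alone, and libraries left out.

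CLL and non-CLL libraries 2, 4, 5 and 6 pair by mouse, from the series' design text; the correlation of their deviations from group means ran from -0.03 to 0.13. The genes and lists were chosen with earlier results of these data known. Full values are given for Gla, Tfeb and the called genes with the 8 largest changes per direction, for the 3 largest called genes of each pathway list and for the neighbours of Gla; Mcoln2 and Mcoln3 in young cells and genes that ran close to a call were added after their values were seen. RefSeq tables of GRCm38.p6 gave coordinates and sequences, and all 36 symbols matched.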

Additional observations from a re-analysis of the deposited data

Results flagged for a closer look

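Among 72 groups of 4 or 5 aged libraries looked at for the 36 genes, 10 held 1 library whose gap to the nearest other was large for the range of its group; chance flags about 1 in 20 groups. In CLL cells, library 1 was far above the others for Gla (40.1 TPM, others 7.50 to 10.4 TPM). CLL library 4 was far above for Galns (71.5 TPM, others 36.2 to 40.9 TPM) and Grn (1026 TPM, others 349 to 510 TPM) and far below for Laptm5 (204 TPM, others 558 to 612 TPM). CLL library 2, which holds 6383 TPM of neutrophil markers, was far above for Smpd1 (29.5 TPM, others 17.0 to 20.1 TPM) and Lipa (175 TPM, others 141 to 151 TPM), and CLL library 5 was far below for Lamp2 (30.5 TPM, others 76.3 to 89.1 TPM). In non-CLL cells, library 5 was far below for Idua (22.4 TPM, others 34.0 to 35.0 TPM) and far above for Ctss (325 TPM, others 236 to 246 TPM), and library 6, from the homozygous mouse, was far above for Mcoln1 (53.5 TPM, others 40.9 to 42.7 TPM).

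Smpd1 stood on opposite sides of wild-type cells in young homozygous and in non-CLL libraries. Every young homozygous library was below every young wild-type library (log2 change -0.34). Every non-CLL library was above every aged wild-type library (log2 change 0.55, not called, adjusted p = 0.112, limma), as for 53.7% of all genes there. The margin was narrow, 28.53 TPM in the lowest non-CLL against 28.49 TPM in the highest aged wild-type library. The olfactory background was 7.18 to 9.21 TPM in non-CLL and at most 0.745 TPM in aged wild-type libraries, and its part was not tested. In CLL against aged wild-type cells the log2 change was -0.10. The difference was not tested, since the tables were scaled separately, and the non-CLL libraries are mostly from heterozygous mice.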

How the results depend on the processing

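Young mice: the 5 genes called higher and 9 lower became 3 and 16 with TMM rescaling, 10 and 15 with library weights, and 4 lower with no filter. Of all genes, 2836 were called higher and 2697 lower of 12216 with TMM rescaling, and 6026 and 2255 of 12219 with library weights. Without wild-type libraries 1 and 2 the median log2 change of the 36 was -0.02, against -0.13. Leaving out 1 library gave 4 to 6 higher and 3 to 17 lower, and between 4511 and 6860 of all genes called, against 6237; the count was 4002 with the filter at 20 TPM and 2858 without wild-type libraries 1 and 2.

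CLL against aged wild-type cells: the 1 gene higher and 2 lower became 0 and 0 with 20 TPM and with background subtraction, 2 higher in 1 fit of all aged groups, 4 and 4 with library weights, and 7 lower with TMM rescaling. Leaving out 1 library gave 1 to 3 higher and 1 to 3 lower. Of all genes, 5278 were called higher and 1434 lower of 21048 with TMM rescaling, and 10971 and 1328 of 21202 with library weights. All genes called numbered 751, and 8853 with a pseudocount of 0.1 TPM, 457 with no filter, 149 with 20 TPM, 6712 both with TMM rescaling and in the fit of all aged groups, 101 with background subtraction, 12299 with library weights, 5643 in heterozygous mutant libraries and between 345 and 8222 with 1 library left out.

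CLL against non-CLL cells: 0 and 0 became 2 higher and 4 lower with library weights, 1 lower in the fit of all aged groups, 2 lower in heterozygous libraries, and 0 to 2 higher and 0 to 3 lower with 1 library left out. Of all genes 1287 were called, and 256 with a pseudocount of 0.1 TPM, 232 with 20 TPM, 353 with TMM rescaling and 345 with background subtraction. The fit of all aged groups called 3387, library weights 11705, heterozygous libraries 11173, and fits with 1 library left out between 325 and 11118. Most of these were lower with library weights (11206 of 22316 genes), in heterozygous libraries (10912 of 22292) and without CLL library 6 (10736 of 22078). Non-CLL against aged wild-type cells: 2 and 3 became 1 higher with a pseudocount of 0.1 TPM, 0 and 0 with 20 TPM and with background subtraction, 0 and 23 with TMM rescaling, 5 higher with library weights, and 1 to 3 higher and 0 to 3 lower with 1 library left out. All genes called numbered 12681, and 83 with 20 TPM, 43 with background subtraction and 11315 to 12862 with 1 library left out. With TMM rescaling 9462 of 22109 genes were called higher and 4268 lower, and with library weights 14227 and 1011 of 22150.

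Replicate block: for CLL against non-CLL cells the block gave 0 higher and 1 lower (Ctsh) and 697 of all genes. In young mice it is open whether the numbers pair the libraries (correlations from -0.10 to 0.32, with 2 of 3 libraries correlated best with their own number). There the block gave 6 higher and 10 lower. For CLL against aged wild-type cells (-0.01 to 0.04) it gave 0, 0 and 2 of all genes. That fit rests on numbers 1 and 2, the only shared ones, which belong to different mice. For non-CLL against aged wild-type cells no paired analysis was possible, because they share fewer than 2 numbers and come from different mice.

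Changes of sign among the genes followed through all alternatives were these. Tfeb turned to -0.0265 in young mice with TMM rescaling. In CLL against wild-type cells it was -0.32 with TMM rescaling, -0.17 with background subtraction, -0.39 with library weights, -0.00392 without CLL library 4, and -0.42 to 0.49 over all single libraries left out, lowest without wild-type library 2; against non-CLL cells it ran from -0.11 (without CLL library 4) to 0.12. In non-CLL against wild-type cells Tfeb was -0.98, -0.71, -0.41 and -0.47 with TMM rescaling, background subtraction, library weights and without wild-type library 2, and up to 0.44 with other libraries left out. Gla in CLL against non-CLL cells was 0.81 with TMM rescaling, 0.55 with background subtraction and ran from -0.44 to 0.13 with 1 library left out, above 0 without CLL library 2, 4, 5 or 6 or non-CLL library 5. With background subtraction Galc (-0.13), Lamp3 (-0.51) and Mcoln3 (-0.38) changed sign in non-CLL against wild-type cells. The medians of all genes with TMM rescaling were -0.00406, 0.60, -0.08 and 0.91 in the 4 comparisons in the order above, against 0.18, 0.93, -0.77 and 1.65. Those of the 36 genes were -0.32, -0.64, 0.72 and -1.12, against -0.13, -0.17, -0.19 and 0.05. Except where an alternative drops samples or genes, the cause of these changes was not tested.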
